A study of Mus musculus with 8 samples.

Results

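Elastic fibres give the lung its recoil. They have a core of elastin, laid on a scaffold of fibrillin microfibrils, and are guided by fibulins and microfibril-associated proteins and cross-linked by lysyl oxidases. Fragmented elastic fibres are a feature of emphysema, the loss of alveolar walls that follows long smoke exposure. The 10 genes described here, of 33027 in the matrix, were chosen by name: Eln (elastin), Fbn1 (fibrillin-1), Fbln1, Fbln2 and Fbln5 (fibulins), Mfap4 and Mfap5 (microfibril-associated proteins), Lox and Loxl1 (cross-linking enzymes) and Ltbp4, which binds latent TGF-beta and takes part in elastin assembly. All 10 were found in the matrix, and they were chosen with earlier results of these data known. In the GENCODE M21 annotation (GRCm38) Eln lies at chr5:134702593-134747323 on the minus strand, Fbn1 at chr2:125300594-125507993 on the minus strand and Mfap4 at chr11:61485431-61488900 on the plus strand, and each overlaps 1 gene on the opposite strand. The question was whether their transcripts differed after cigarette smoke in the stromal cells that make elastic fibres.

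Single-cell RNA sequencing was performed on lungs of 8 C57BL/6 mice, 4 exposed to cigarette smoke (CS) and 4 to room air (RA), each group with 2 mice labelled male and 2 labelled female. Every mouse, RA included, was Sftpc-CreERT2-mTmG, a reporter line in which the promoter of Sftpc drives Cre in alveolar type 2 (AT2) cells, and every mouse had 4 days of tamoxifen at 8 to 10 weeks of age. Exposure began 2 weeks later and lasted 10 months, with smoke for 6 h a day on 5 days a week. Each mouse was 1 library, and the lane tag in the labels put 1 CS and 1 RA library together in each of 4 lanes. Lungs were digested with collagenase and elastase, and the loaded mix was set to 90% CD45- and 10% CD45+ cells, so shares of cell types are not those of the intact lung.

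The level of a gene was the mean over the cells of 1 type in 1 mouse of its transcripts per 10,000 of the cell. After multiplets and cycling cells were left out, 40074 cells of 32 types remained, 2553 to 6371 cells and 31094695 to 52753531 unique molecular identifiers (UMIs) per mouse. In all 4 CS libraries the sex-linked transcripts went against the labelled sex, and in the 4 RA libraries they matched it. Between libraries, 197 cell barcodes recurred, covering 394 cells. RA mouse 1 stood apart. In 35 pairs of a member and a cell type, all 8 mice had at least 20 cells and the mean level was at least 0.5. Among these RA mouse 1 was the lowest 19 times, and CS mouse 1 was the highest 10 times. The median of 4254 UMIs per cell in RA mouse 1 was the lowest of the 8 mice.

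The labels of the 5 source types were checked against their markers. Adventitial fibroblasts had the highest level of Dcn (76.6) and Pi16 (5.77), alveolar fibroblasts of Inmt (58.0) and Npnt (14.5), peribronchial fibroblasts of Hhip (50.2), smooth muscle cells of Acta2 (127) and Myh11 (30.2), and mesothelium of Msln (21.5). Of the markers listed for these types, Ly6a, Cd34, Limch1 and Lgr6 were highest in another type. The endothelial type labelled capillary B had the highest levels of Gpihbp1 (12.3) and Kit (5.02) among 5 endothelial types, and the type labelled arterial that of Gja5 (1.51). The fibroblasts were 1403 adventitial, 2014 alveolar and 252 peribronchial cells, beside 149 smooth muscle and 1132 mesothelial cells. Smooth muscle cells were few, 15 to 35 in each CS mouse and 4 to 28 in each RA mouse.

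The members divided among 5 cell types by where they were highest. Eln was highest in smooth muscle cells, at 15.1 transcripts per 10,000 averaged over the 8 mice, against 5.16 in peribronchial fibroblasts, 4.17 in arterial endothelium, 4.03 in mesothelium, 3.91 in venous endothelium, 3.76 in adventitial fibroblasts and 2.36 in alveolar fibroblasts. Fbn1, Fbln1, Mfap5, Loxl1 and Ltbp4 were highest in adventitial fibroblasts. Mfap4 and Lox were highest in alveolar fibroblasts, Fbln2 in arterial endothelium and Fbln5 in alveolar type 1 (AT1) cells, the thin cells of the gas exchange surface. In B cells, which should not make elastic fibres, each member was at 0.07 or below.

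**Figure D1:**
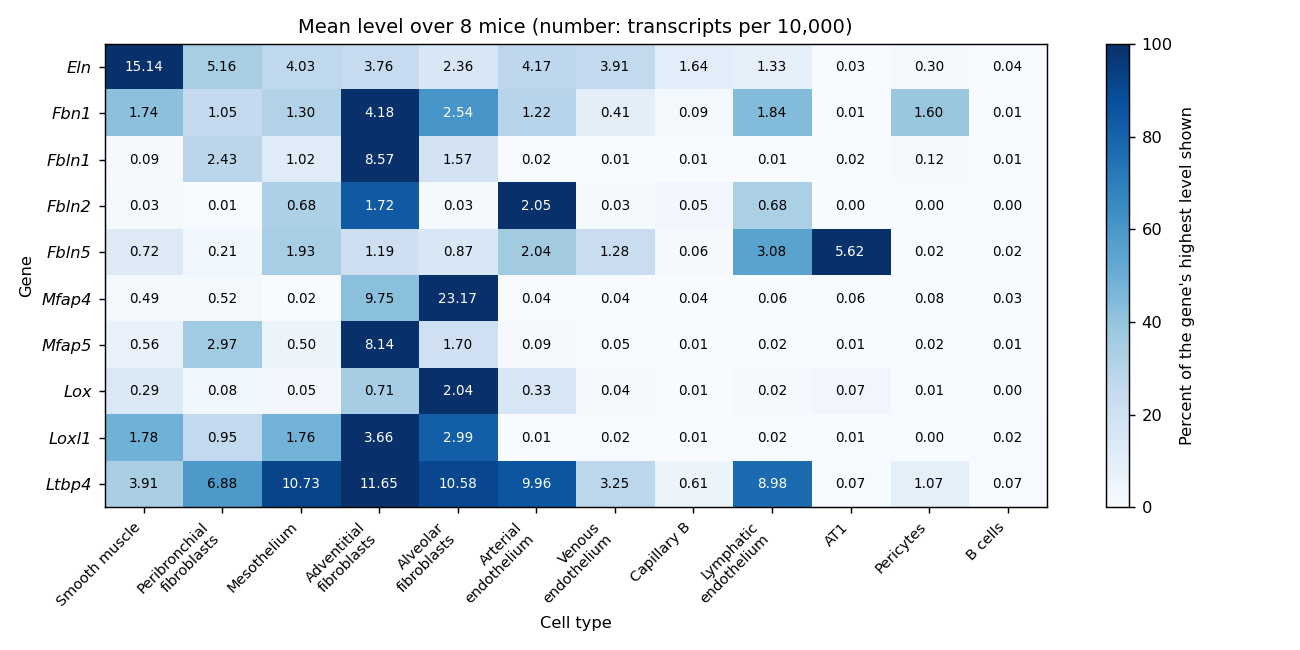
The map shows the mean level over 8 mice of each of the 10 genes (rows) in 12 cell types (columns); numbers are transcripts per 10,000 and the colour is the percent of that gene's highest level shown, so rows cannot be compared by colour. Eln is darkest in smooth muscle (15.14), Mfap4 in alveolar fibroblasts (23.17), Fbln5 in AT1 cells (5.62), and 5 genes in adventitial fibroblasts.

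The order of the 5 stromal sources was tested between neighbours within mice, with an exact two-sided sign-flip test over mice having at least 20 cells of both types. Of 40 neighbouring pairs none passed the Benjamini-Hochberg adjustment (smallest adjusted p = 0.0781, exact sign-flip test), and pairs with smooth muscle had at most 3 mice. The smallest p of this test is 0.0078 with 8 mice and larger with fewer, so over 40 pairs it had little room to pass any. That none passed does not show that levels were alike. Without a minimum number of cells, a choice made after the cell numbers were seen, 24 of 40 pairs passed. Eln was then higher in smooth muscle than in peribronchial fibroblasts in 8 of 8 mice (mean log2 difference 1.47, exact sign-flip adjusted p = 0.0184). Its levels in peribronchial fibroblasts and mesothelium (adjusted p = 0.768, exact sign-flip test) and in mesothelium and adventitial fibroblasts (adjusted p = 0.768, exact sign-flip test) did not differ beyond their spread. Mfap4 was higher in alveolar than in adventitial fibroblasts in 8 of 8 mice, 23.2 against 9.75 (log2 difference 1.15), and Lox likewise, 2.04 against 0.71 (log2 difference 0.82). Fbln1 ran the other way, with 8.57 in adventitial and 1.57 in alveolar fibroblasts. The levels of Ltbp4 in adventitial fibroblasts (11.7), mesothelium (10.7) and alveolar fibroblasts (10.6) were close, and neither neighbouring pair passed.

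The share of a gene's UMIs in a type depends on its level, on the number of cells and on the UMIs per cell. Smooth muscle, on average 0.361% of the cells of a mouse, had the highest Eln level, yet of all Eln UMIs 24.3% ± 17.4 (SD, n = 8 mice) lay in mesothelium, 19.7% ± 8.5 in capillary B cells, 15.2% ± 6.0 in adventitial fibroblasts and 12.5% ± 5.3 in venous endothelium. Capillary B cells were on average 23.7% of the cells of a mouse. Median depth was 15021 UMIs per cell in mesothelium, 9418 in adventitial fibroblasts and 3833 in capillary B cells. For Mfap4, 66.0% ± 11.9 of the UMIs lay in alveolar and 31.4% ± 12.2 in adventitial fibroblasts. For Fbln5, 32.6% ± 6.6 lay in AT1 cells.

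Within a type Eln was uneven over cells. In adventitial fibroblasts 29.1% of cells had no Eln UMI on average over mice, and the 10% of cells with the most Eln held 48.2% of its scaled transcripts, between 39.7% and 56.4% in single mice. In alveolar fibroblasts 54.5% of cells had none and the top 10% held 59.6%. Fbn1, at a like mean level in adventitial fibroblasts (4.18 against 3.76 for Eln), was missing from 15.9% of cells and had 34.5% of its transcripts in the top 10%. Both shares depend on the level of a gene as well as on how it is spread over cells: for Ltbp4, at 11.7, they were 1.79% and 22.8%.

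Across the 22 types with at least 20 cells in 3 mice of each group, a set that leaves out smooth muscle, the 5 genes whose levels ran most like Eln were Gm2830 (r = 0.95), Casp12 (r = 0.94), Lix1l (r = 0.93), 0610043K17Rik (r = 0.92) and Dbn1 (r = 0.92). Among the other members r with Eln was highest for Ltbp4 (0.92) and lowest for Mfap4 (0.41). These are Pearson correlations of log2(level + 1) across types that share the same libraries, given as a description.

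For 5 of the 10 members a start site was in the RefSeq promoter table (build GRCm38.p6). The 250 bases before the first start listed are shown for Fbln1 and Fbln5, fibulins whose highest sources lay far apart, adventitial fibroblasts and AT1 cells, and whose windows overlap no exon of the GENCODE annotation. Fbln1 (chr15:85205699-85205948, plus strand) and Fbln5 (chr12:101819120-101819369, minus strand) are printed 5′ to 3′, with capitals where GGGCGG or CAGAC is found on either strand.
Fbln1: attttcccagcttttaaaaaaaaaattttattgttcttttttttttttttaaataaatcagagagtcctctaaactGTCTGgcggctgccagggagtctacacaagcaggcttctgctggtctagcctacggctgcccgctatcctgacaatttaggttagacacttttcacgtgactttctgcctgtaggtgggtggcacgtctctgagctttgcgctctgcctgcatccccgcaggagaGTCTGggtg
Fbln5: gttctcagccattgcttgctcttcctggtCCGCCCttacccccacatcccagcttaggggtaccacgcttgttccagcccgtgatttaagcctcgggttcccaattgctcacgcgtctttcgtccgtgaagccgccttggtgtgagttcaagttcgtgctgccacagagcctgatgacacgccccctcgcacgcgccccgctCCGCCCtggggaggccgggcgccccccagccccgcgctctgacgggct
The Fbln1 window held 2 copies of CAGAC, the core of the element bound by the SMAD factors of TGF-beta signalling, and no GGGCGG. The Fbln5 window held 2 copies of GGGCGG, the GC box, and no CAGAC. Neither held TATAAA, and G and C made up 46.4% of the Fbln1 window and 65.2% of the Fbln5 window. Of 32851 promoter windows of this length, 32.7% held GGGCGG, 42.2% CAGAC and 12.4% TATAAA, so both motifs are common. The second start listed for each gene gave other counts, 1 GGGCGG and 2 CAGAC for Fbln1 and 0 GGGCGG and 2 CAGAC for Fbln5, so the contrast between the genes holds for the first start only. The windows of those second starts overlap exons and are not shown.

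No member passed the test between CS and RA in any stromal source. In adventitial fibroblasts 0 of 10 members tested had an adjusted p under 0.05 by limma, beside 3.08% of all 9519 genes called, and 1 of 10 had an unadjusted p under 0.05, beside 22.5% of all genes. In alveolar fibroblasts it was 0 of 9, beside 1.55% of 8520 genes, and 2 of 9 had an unadjusted p under 0.05, beside 22% of all genes. In mesothelium it was 0 of 8, beside 0.307% of 11092 genes, with 0 of 8 at an unadjusted p under 0.05 beside 13.8% of all genes, from 3 CS and 4 RA mice. In peribronchial fibroblasts it was 0 of 7 and 0% of 7080 genes passed, with 0 of 7 at an unadjusted p under 0.05 beside 8.6% of all genes, from 3 CS and 3 RA mice. The remaining members were found in under 10% of the cells of both groups and were not tested there.

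Elastin itself was the member nearest to a difference. In adventitial fibroblasts Eln was 2.72, 3.10, 3.18 and 3.58 in the CS mice and 3.79, 5.53, 3.82 and 4.35 in the RA mice. No CS mouse reached the lowest RA mouse, and the CS mouse was therefore lower in all 4 lanes. The CS mean was 3.14 ± 0.36 (SD, n = 4) against 4.37 ± 0.81 (SD, n = 4) for RA, so CS stood at 0.72 times RA. On the log2 scale the difference of −0.37 (SE 0.12, 95% interval −0.63 to −0.10) had an adjusted p of 0.110 by limma, and the exact permutation p of 0.0286 is the smallest that 4 against 4 allows. With lane as a block the adjusted p was 0.173 by limma. Eln was the 1 of 10 members tested in adventitial fibroblasts whose groups did not overlap, beside 14% of all genes tested there, and in alveolar fibroblasts it was 0 of 9, beside 14.2%. Over all 40 pairs compared in the sources the smallest adjusted p of the exact permutation test was 0.762. Only 20 of these pairs had 4 against 4 mice and the rest allow only larger p, so this adjusted p could not fall under 0.05.

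Sums of marker levels were compared between groups in adventitial fibroblasts. The summed level of 4 peribronchial fibroblast markers in adventitial fibroblasts was 1.54 to 3.07 in CS and 0.79 to 1.34 in RA mice, with 3 of the 4 genes higher in CS and none at 0. The 5 adventitial markers summed to 76.4 to 103 in CS and 99.7 to 117 in RA mice, with 1 of the 5 higher in CS. Of the marker sums in these cells only the peribronchial sum did not overlap between groups, as for 14% of all genes tested there. The part of these markers in the Eln difference was not tested. Median depth overlapped, at 8022 to 12473 UMIs per cell in CS and 8551 to 13187 in RA mice. After cells were thinned to 2000 UMIs, Eln was detected in 33.0% of adventitial fibroblasts in CS and 40.4% in RA mice, and in 0.73% of B cells. Without thinning the shares were 67.2% and 74.6%.

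**Figure D2:**
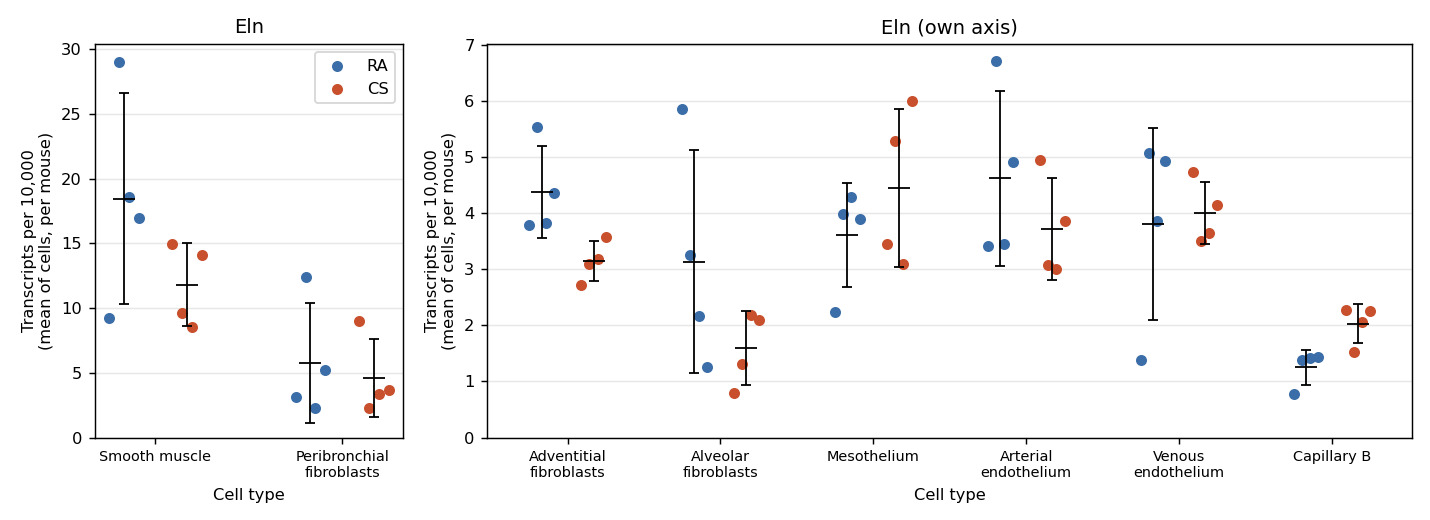
Eln in transcripts per 10,000 (vertical axes, from 0, on separate scales in the panels) is shown for each RA (blue) and CS (red) mouse in 8 cell types, with the group mean and SD in black. In adventitial fibroblasts the CS points (2.72 to 3.58) lie below the RA points (3.79 to 5.53), in capillary B cells they lie above (1.53 to 2.27 against 0.79 to 1.43), and in the other 6 types the groups overlap.

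In alveolar fibroblasts Eln was 0.80, 1.31, 2.18 and 2.10 in CS mice and 5.85, 3.24, 2.17 and 1.26 in RA mice. The groups overlapped, and the RA mice ranged over more than the CS mice. The log2 difference was −0.59 (SE 0.27, adjusted p = 0.227 by limma). Without RA mouse 1, the highest, the difference was −0.30 (adjusted p = 0.493 by limma). Without RA mouse 4, the lowest RA mouse, it was −0.84 (adjusted p = 0.0986 by limma). In peribronchial fibroblasts, with every mouse shown, Eln was 9.01, 2.26, 3.34 and 3.68 in CS and 3.11, 12.4, 2.29 and 5.19 in RA mice. There 1 mouse of each group was far above the rest, and the log2 difference of −0.48 (SE 0.35, adjusted p = 0.712 by limma) became 0.14 without RA mouse 2 and −0.82 (adjusted p = 0.25 by limma) with lane as a block. With 20 cells required only 2 lanes held a mouse of each group here, and 1 of them held RA mouse 2, so the value with lane as a block rests on that mouse too. With no minimum of cells, so that all 8 mice entered, it was −0.19.

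In smooth muscle cells, where Eln was highest, the difference was not resolved. Their levels were 15.0, 9.59, 8.54 and 14.1 in CS mice and 9.25, 29.0, 18.6 and 17.0 in RA mice, a ratio of means of 0.64. One RA mouse lay among the CS mice and the others above them. The fit over all 8 mice, chosen after the small cell numbers were seen, gave a log2 difference of −0.54 (SE 0.31, adjusted p = 0.792 by limma), with 1 of 9140 genes called. The exact permutation p was 0.171. RA mouse 4 contributed 4 smooth muscle cells.

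Mesothelium ran the other way, with Eln at 3.45, 5.28, 3.09 and 5.99 in CS mice and 2.24, 3.99, 4.29 and 3.90 in RA mice. The groups overlapped, and CS mouse 1, with 9 mesothelial cells, did not enter the test. The log2 difference was 0.32 (SE 0.21, adjusted p = 0.532 by limma), and it lay between 0.16 and 0.55 when 1 mouse was left out. When the 3 fibroblast types were joined, the difference for Eln was −0.44 (SE 0.14, adjusted p = 0.0901 by limma). The effect of smoke on Eln was not shown to differ between any 2 of the 4 tested sources. Over 6 pairs of types no member had an adjusted p under 0.05 by limma for the difference of the differences. In each pair at most 6 of all genes tested, 6601 to 8848 of them, were called, so a call was rare for any gene. The smallest unadjusted p for Eln, 0.0066, was for adventitial fibroblasts against mesothelium (difference −0.63, adjusted p = 0.440 by limma).

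Fibrillin-1 is the backbone of the microfibril, and its transcripts gave no resolved difference in the stroma. In adventitial fibroblasts Fbn1 was 3.48, 3.65, 4.12 and 5.05 in CS mice and 3.74, 4.31, 5.04 and 4.03 in RA mice. The groups overlapped, with a log2 difference of −0.06 (95% interval −0.33 to 0.21, adjusted p = 0.805 by limma). In alveolar fibroblasts it was 2.57 to 2.83 in CS and 1.86 to 2.74 in RA mice, and the log2 difference was 0.13 (95% interval −0.08 to 0.34).

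The fibulins bridge elastin and microfibrils. Fbln1 in adventitial fibroblasts was 9.59, 10.0, 6.66 and 6.43 in CS and 7.42, 11.1, 8.14 and 9.21 in RA mice, with overlap. Its log2 difference was −0.13 (95% interval −0.49 to 0.23). Fbln2 there was 1.26 to 2.40 in CS and 1.63 to 2.0 in RA mice, a log2 difference of −0.12 (95% interval −0.38 to 0.14). Fbln5, needed for elastic fibre assembly, was 0.87 to 1.43 in CS and 0.98 to 1.36 in RA adventitial fibroblasts, a log2 difference of −0.04 (95% interval −0.25 to 0.16). In AT1 cells, its highest source, Fbln5 was 7.07, 6.05, 5.77 and 5.49 in CS and 3.30, 5.87, 5.19 and 6.21 in RA mice. RA mouse 1 was the low one, and the log2 difference of 0.23 had an adjusted p of 0.427 by limma, beside 2.38% of genes called in AT1 cells.

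Of the microfibril-associated genes, Mfap4, which binds elastin, was 27.3, 35.6, 20.8 and 22.5 in CS and 23.0, 20.5, 15.5 and 20.1 in RA alveolar fibroblasts. The CS mouse was the higher in each of the 4 lanes, although the groups overlapped. Means were 26.6 ± 6.64 (SD, n = 4) and 19.8 ± 3.15 (SD, n = 4), and the log2 difference of 0.39 (SE 0.17, 95% interval 0.02 to 0.76) had an adjusted p of 0.203 by limma. The mean of log values per cell gave 0.74, an adjusted p of 0.0738. With lane as a block the adjusted p was 0.293 by limma. Leaving out 1 mouse gave 0.25 to 0.50, the lowest without CS mouse 2 (adjusted p = 0.407 by limma). Marker sums were compared in the alveolar fibroblasts as well. The 4 immune markers summed to 0.38 to 0.52 in CS and 0.14 to 0.37 in RA mice, with 3 of 4 higher in CS, and the 4 mesothelial markers to 0.0168 to 0.0423 in CS and 0.0425 to 0.148 in RA mice, with 1 of 4 higher in CS. Neither sum overlapped between groups (exact permutation p = 0.0286 for each), as for 14.2% of all genes tested there. Every other marker sum in these cells overlapped between groups. None of the immune and mesothelial markers was at 0, and their part in the Mfap4 and Eln differences was not tested. In adventitial fibroblasts Mfap4 was 8.98 to 11.4 in CS and 5.94 to 11.5 in RA mice. Mfap5 in adventitial fibroblasts was 7.25 to 8.72 in CS and 6.94 to 9.28 in RA mice, a log2 difference of −0.08 (95% interval −0.34 to 0.19).

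The cross-linking enzymes join elastin chains. Lox in alveolar fibroblasts was 1.89, 1.23, 1.58 and 2.22 in CS and 3.26, 2.32, 1.93 and 1.91 in RA mice. Of the CS mice 3 lay below all RA mice and 1 among them, and the log2 difference was −0.29 (SE 0.14, adjusted p = 0.229 by limma). Leaving out 1 mouse gave −0.38 to −0.17. Loxl1 in the same cells was 3.04 to 3.31 in CS and 2.68 to 3.10 in RA mice, a log2 difference of 0.11 (95% interval −0.07 to 0.30). In adventitial fibroblasts Loxl1 had a log2 difference of 0.00 (95% interval −0.29 to 0.29).

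Ltbp4 was 13.9, 11.6, 10.6 and 12.9 in CS and 7.92, 11.8, 11.8 and 12.7 in RA adventitial fibroblasts. The groups overlapped, with RA mouse 1 the lowest, and the log2 difference was 0.15 (95% interval −0.18 to 0.48). In smooth muscle cells of all 8 mice Ltbp4 was 3.56 to 5.94 in CS and 1.89 to 5.80 in RA mice (log2 difference 0.59, adjusted p = 0.738 by limma). Mfap4 had a log2 difference of 0.44 in that fit (adjusted p = 0.734 by limma). Their unadjusted p by limma were 0.0491 for Ltbp4 and 0.0442 for Mfap4. The share of all genes with an unadjusted p under 0.05 was not counted in this fit, where 1 of 9140 genes was called. Neither p is therefore read as a difference.

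**Figure D3:**
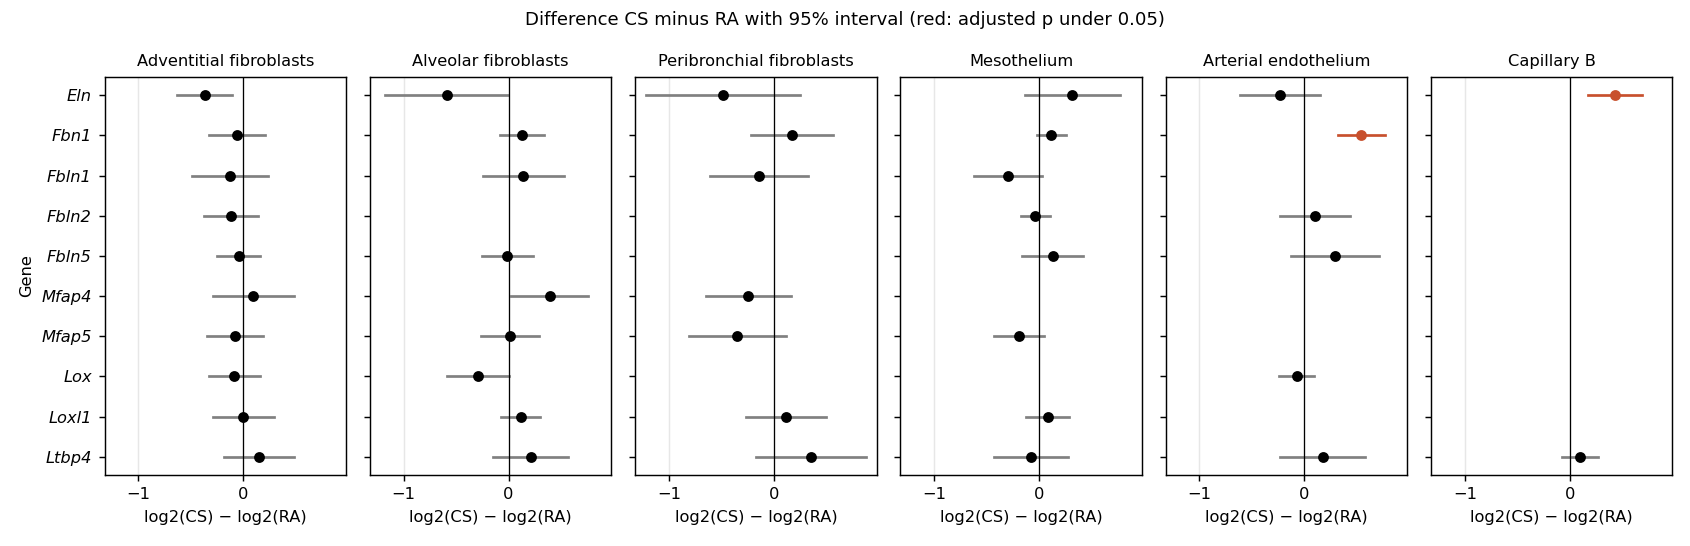
Each point is the log2 difference CS minus RA of 1 gene (rows) in 1 cell type (panels), with its 95% interval from limma; a gene without a point was found in too few cells of that type. Intervals in the 4 stromal panels are grey, none with an adjusted p under 0.05, and the red ones are Eln in capillary B cells (0.43) and Fbn1 in arterial endothelium (0.54).

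Endothelial cells were looked at after the stromal sources, because several members had sizeable levels there. Eln in capillary B cells was 2.27, 1.53, 2.06 and 2.26 in CS mice and 0.79, 1.38, 1.42 and 1.43 in RA mice. All CS mice lay above the highest RA mouse, opposite in direction to adventitial fibroblasts, and the CS mouse was therefore higher in all 4 lanes. Such groups without overlap were found for 24.4% of all genes tested in these cells. The CS mean was 2.03 ± 0.35 (SD, n = 4) against 1.25 ± 0.31 (SD, n = 4) for RA, so CS stood at 1.62 times RA. On the log2 scale the difference was 0.43 (SE 0.12, 95% interval 0.17 to 0.69), with an adjusted p of 0.0460 by limma, and with lane as a block the call was lost (0.43, adjusted p = 0.0789). Here 10.8% of all 6712 genes were called, 440 higher and 285 lower in CS, so a call was common, and of the 2 members tested Eln was called and Ltbp4 (log2 difference 0.10, adjusted p = 0.368) was not. The call was lost in 6 of 8 fits that left out 1 mouse, with the difference between 0.32 and 0.51 and the adjusted p between 0.0385 and 0.125. The mice whose absence ended it were CS mouse 1 (0.39), CS mouse 3 (0.42), CS mouse 4 (0.39), RA mouse 2 (0.46), RA mouse 3 (0.47) and RA mouse 4 (0.47).

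Markers of the stromal sources of elastin were measured in capillary B cells. Those of arterial and venous endothelium, where Eln was higher, were not compared between groups. The 4 fibroblast markers summed to 0.07 to 0.10 in CS and 0.08 to 0.19 in RA mice, with 1 of 4 higher in CS, and the 5 smooth muscle markers to 0.17 to 0.34 in CS and 0.21 to 0.92 in RA mice, with 1 of 5 higher in CS. The 4 mesothelial markers summed to 0.01 to 0.04 in CS and 0.02 to 0.12 in RA mice, with 0 of 4 higher in CS, and the 5 alveolar fibroblast markers to 1.26 to 1.71 and 0.90 to 1.61, with 1 of 5 higher. The 4 peribronchial markers summed to 0.39 to 0.47 in CS and 0.27 to 0.55 in RA mice, with 2 of 4 higher in CS. The 2 airway markers summed to 6.02 to 7.88 in CS and 7.61 to 16.7 in RA mice (exact permutation p = 0.0571), with 0 of 2 higher in CS. The 5 adventitial markers summed to 17.6 to 20.7 in CS and 22.1 to 36.2 in RA mice, without overlap (exact permutation p = 0.0286), with 1 of 5 higher in CS. Of that sum Ly6a made up 22.5 of 23.1 on average, a gene that was highest in capillary A cells (42.7). None of these markers was at 0, and their part in the Eln difference was not tested. After thinning to 2000 UMIs, 29.0% of capillary B cells in CS and 19.1% in RA mice had an Eln UMI (46.0% and 34.6% without thinning), against 0.73% of B cells. Their median depth was 3833 UMIs per cell, and 4055 in B cells.

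The difference in the smoke effect on Eln between adventitial fibroblasts and capillary B cells, chosen after both values were seen, was −0.80 on the log2 scale (SE 0.13, adjusted p = 0.0359 by limma, 18 of 6269 genes called). Leaving out 1 mouse kept it between −0.88 and −0.71 and ended the call in 7 of 8 fits, all but that without RA mouse 3 (−0.88).

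Fbn1 in arterial endothelium was 1.60, 1.91, 1.36 and 1.68 in CS mice and 0.62, 0.81, 0.97 and 0.85 in RA mice. The groups did not overlap, as for 8.76% of all genes tested there, and the CS mouse was therefore higher in all 4 lanes. The CS mean was 1.64 ± 0.23 (SD, n = 4) against 0.81 ± 0.14 (SD, n = 4) for RA, so CS stood at 2.02 times RA. On the log2 scale the difference was 0.54 (SE 0.11, 95% interval 0.32 to 0.76, adjusted p = 0.0259 by limma), beside 0.661% of 8022 genes called in that type and 1 of 6 members. With lane as a block the adjusted p was 0.0452. When counts were summed per mouse, which gives cells of more UMIs more weight, the difference was 0.32 and the adjusted p 0.109. The call was also lost without CS mouse 1 (0.55), CS mouse 2 (0.49), CS mouse 4 (0.53) or RA mouse 2 (0.54). The smoke effect on Fbn1 in adventitial fibroblasts minus that in arterial endothelium was −0.60 (SE 0.12, adjusted p = 0.0997 by limma). This test too was chosen after values were seen, and the effect was not shown to differ between the types.

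The 4 fibroblast markers in arterial endothelium summed to 0.07 to 0.20 in CS and 0 to 0.15 in RA mice, with 3 of 4 higher in CS, and the 5 smooth muscle markers to 0.84 to 3.17 and 0.41 to 2.29, with 3 of 5 higher in CS and 1 at 0. The 5 adventitial markers summed to 13.9 to 18.2 in CS and 23.7 to 36.6 in RA mice, without overlap (exact permutation p = 0.0286), with 0 of 5 higher in CS, and Ly6a made up 21.9 of the mean sum of 23.0. The 3 endothelial markers summed to 35.2 to 39.6 in CS and 38.8 to 44.8 in RA mice (exact permutation p = 0.0571), with 1 of 3 higher in CS, and the 5 alveolar fibroblast markers to 3.34 to 4.16 and 2.01 to 3.88, with 3 of 5 higher. The airway markers Scgb1a1 and Foxj1 summed to 1.78 to 103 in CS and 0 to 6.34 in RA mice, with 1 of 2 higher in CS. Their part in the Fbn1 difference was not tested. After thinning, 26.9% of arterial cells in CS and 14.6% in RA mice had an Fbn1 UMI (49.6% and 35.4% without thinning), against 0.25% of B cells. Median depth in arterial endothelium was 4267 to 5406 UMIs per cell in CS and 4001 to 7061 in RA mice.

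**Figure D4:**
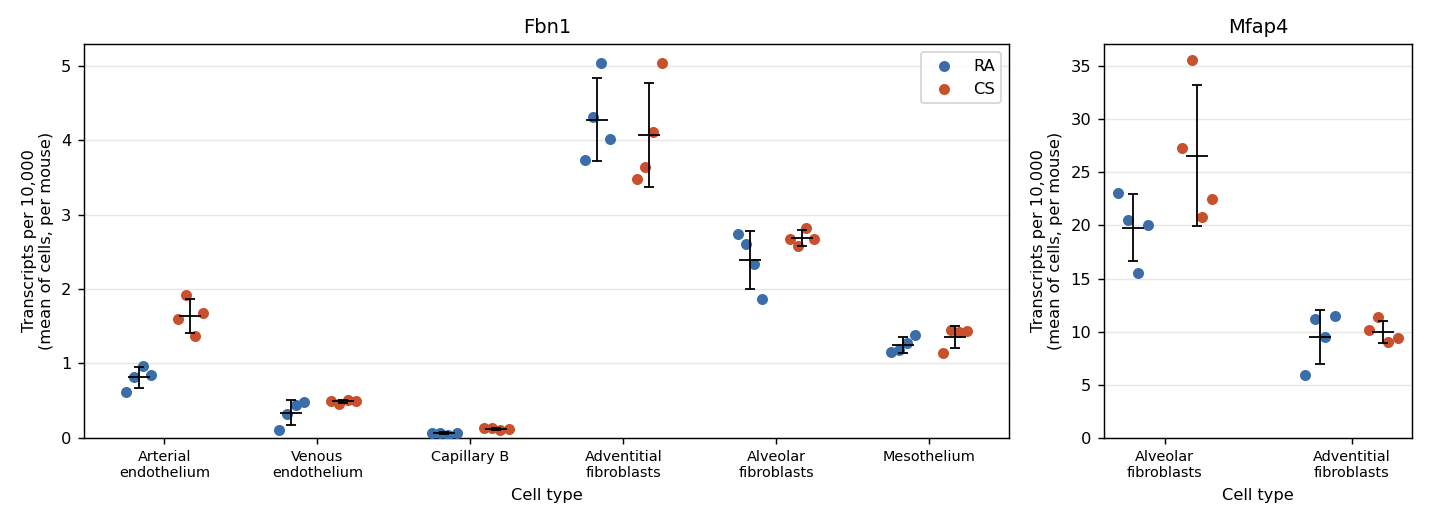
Levels of Fbn1 (left, 6 cell types) and Mfap4 (right, 2 fibroblast types) in transcripts per 10,000 are shown per mouse, RA in blue and CS in red, with mean and SD in black and axes from 0. CS points for Fbn1 stand above RA points in arterial endothelium (1.36 to 1.91 against 0.62 to 0.97) and, at far lower levels, in capillary B cells, while Mfap4 overlaps between groups. In capillary B cells Fbn1 was found in 3.8% of cells in CS and 2.5% in RA mice, too few for the main test. Groups without overlap were found for 8.76% of all genes tested in arterial endothelium and 24.4% in capillary B cells.

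Other endothelial sources gave no call. In venous endothelium 0 of 4 members passed by limma, beside 0.128% of genes, and 1 of 4 had an unadjusted p under 0.05, beside 15.1% of genes. That member was Fbln5, at 1.79, 1.78, 1.62 and 1.2 in CS and 0.40, 1.18, 0.88 and 1.41 in RA mice (log2 difference 0.42, adjusted p = 0.226). In lymphatic endothelium it was 0 of 5 and 0% of genes were called by limma, with 0 of 5 at an unadjusted p under 0.05 beside 9.42% of genes. Eln in arterial endothelium was 3.01 to 4.94 in CS and 3.41 to 6.71 in RA mice (log2 difference −0.23, adjusted p = 0.586 by limma). In capillary A cells, where 2.04% of genes were called, no member was found in enough cells. In the other 12 types tested, 0.67% of fits of a gene were calls by limma, and of 2 member fits, both of Ltbp4, 0 were called. In club cells Ltbp4 had an unadjusted p under 0.05 (log2 difference −0.07, adjusted p = 0.378), as had 12.6% of all fits of a gene in those types.

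Beyond the members, 5 lists of the elastic fibre pathway were counted as a description, as they were chosen with earlier results of these data known. Of their 44 genes tested in adventitial fibroblasts 3 were called, 6.82%, beside the 3.08% of all genes. There 2 of 13 TGF-beta genes rose by limma, Tgfb3 (log2 difference 0.40, SE 0.08, adjusted p = 0.0250) and Tgfb2 (0.39, SE 0.09, adjusted p = 0.0421), both ligands that are secreted in latent form. Tgfb3 was 1.42, 1.57, 1.21 and 1.25 in CS and 0.64, 0.94, 0.82 and 0.78 in RA mice. Tgfb2 was 1.10, 1.02, 0.84 and 0.83 in CS and 0.33, 0.65, 0.67 and 0.33 in RA mice. Neither overlapped between groups, as for the 14% of all genes given above. With lane as a block both calls were lost (adjusted p = 0.0971 for Tgfb3 and 0.0995 for Tgfb2 by limma). Leaving out 1 mouse kept Tgfb3 between 0.36 and 0.44 and ended its call without CS mouse 1, 2 or 4 or RA mouse 1 or 4. Tgfb2 stayed between 0.33 and 0.44 and lost its call in 7 of 8 such fits, all but that without RA mouse 3. The median log2 difference of the 13 genes was 0.11, against 0.00 over all genes tested. Without a call, Tgfb2 differed by 0.49 in mesothelium (adjusted p = 0.0763 by limma) and by 0.42 in arterial endothelium (adjusted p = 0.0843 by limma). In peribronchial fibroblasts it was 0.52 and in alveolar fibroblasts 0.14 (adjusted p = 0.472 and 0.320 by limma). The part of the peribronchial markers given above in the Tgfb2, Tgfb3 and Adamts10 differences was not tested.

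Of 20 other assembly genes 17 were tested in adventitial fibroblasts and 1 rose, Adamts10, a protease-family protein that binds fibrillin microfibrils (log2 difference 0.43, SE 0.10, adjusted p = 0.0424 by limma). It was 1.79, 1.59, 1.65 and 1.47 in CS and 0.59, 1.21, 1.14 and 0.88 in RA mice, without overlap, and its call was lost in all 8 fits that left out 1 mouse (0.34 to 0.50) and with lane as a block (adjusted p = 0.104 by limma). The median of those 17 was 0.00. In the other sources Adamts10 differed by 0.38 in alveolar fibroblasts (adjusted p = 0.143 by limma), 0.09 in mesothelium and −0.13 in peribronchial fibroblasts. None of 5 elastin-degrading enzymes, 6 protease inhibitors and 3 contractile genes tested there was called, with 3, 1 and 0 at an unadjusted p under 0.05. Over the 5 lists 22.7% of the genes had an unadjusted p under 0.05, beside 22.5% of all genes. In alveolar and peribronchial fibroblasts and in mesothelium 0 genes of the 5 lists were called by limma, with 11 of 38, 6 of 40 and 7 of 37 at an unadjusted p under 0.05. These were 28.9%, 15% and 18.9% of the list genes, beside 22%, 8.6% and 13.8% of all genes tested in those types.

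In capillary B cells Mfap2, which encodes a further microfibril protein, fell by 0.50 on the log2 scale (SE 0.13, adjusted p = 0.0376 by limma), the 1 of 6 assembly genes tested there to be called. Over the 5 lists 1 of 17 genes tested in these cells was called, 5.88%, beside the 10.8% of all genes. It was 1.08, 0.67, 1.28 and 1.11 in CS and 2.31, 1.49, 1.48 and 2.31 in RA mice, so in the same cells Mfap2 was below and Eln above the RA range. This gene was chosen after its values were seen, and its call was lost in 7 of 8 fits that left out 1 mouse, all but that without RA mouse 3 (−0.57 to −0.41 over the 8). With lane as a block it was also lost (adjusted p = 0.0606 by limma).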

How the data were processed

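The deposited matrix holds UMI counts per gene and cell made by the authors with STARsolo (STAR 2.7.3a, GRCm38.p6, GENCODE M22) and corrected for free RNA with SoupX, so its expected counts are not whole numbers. The deposited cell table gives cell type, mouse, and the percent of mitochondrial transcripts, which the authors computed; other deposited cell columns were used as labels. Multiplet and cycling cells were left out. Counts of a cell were scaled to 10,000 and averaged per mouse and type. limma 3.58.1 (R 4.3.3) was fitted with a mean-variance trend to log2(mean + 1) over all genes found in at least 10% of cells of either group, in mice with at least 20 cells, with Benjamini-Hochberg adjustment per type at 0.05. A count model was not used on corrected counts. Log2 differences are on the log2(value + 1) scale and understate changes of low genes. Exact tests were two-sided permutations. The fits were tested on simulated data. Each mouse is 1 library; p-values measure the spread between mice. The 10 members, their source types and the lists were chosen with earlier results of these data known. All members, list genes called in a source type and the 5 genes most like Eln are named; the endothelial results, Mfap2 there included, were added after values were seen. Positions are from GENCODE M21, and promoter sequences from RefSeq. Alternatives changed the pseudocount, filter, averaging, scaling, covariates, cells and mice.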

Additional observations from a re-analysis of the deposited data

Results flagged for a closer look

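A difference between cell types was marked in 1 result: the smoke effect on Eln in adventitial fibroblasts minus that in capillary B cells was −0.80 on the log2 scale (SE 0.13, adjusted p = 0.0359 by limma), a test chosen after both values were seen. The like test of Fbn1 in adventitial fibroblasts minus arterial endothelium did not pass (−0.60, adjusted p = 0.0997 by limma).

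In 77 groups of 4 mice of a member and cell type, 3 mice were far from the other 3 by Dixon's criterion, where chance gives about 1 in 20 groups (3.85 of 77). All 3 were RA mouse 1. Its Eln level in capillary B cells was 0.79, against 1.38 to 1.43 in the other RA mice. Its Loxl1 level in adventitial fibroblasts was 2.60, against 3.96 to 4.13. Its Ltbp4 level in capillary B cells was 0.32, against 0.61 to 0.66. Over the 17 types measured in all mice, RA mouse 1 had the lowest median UMI count in 8. Without it the Eln difference in capillary B cells was 0.32 (adjusted p = 0.0499 by limma), and the part of its depth was not tested.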

How the results depend on the processing

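In the 4 stromal sources and in the 6 pairs of them, the count of members called was 0 under every alternative run. In the main fit of each pair at most 6 of all genes tested were called. Eln in adventitial fibroblasts kept its sign in 22 of 22 alternatives (−0.46 to −0.26, adjusted p 0.0717 to 0.290), as did Eln and Mfap4 in alveolar fibroblasts. Many of these could not change the sign. The gene filters, the lane and sex terms and the cell minima left Eln in adventitial fibroblasts at −0.37. Its groups did not overlap there, so leaving out 1 mouse could not change the sign either. In capillary B cells the 1 member called became 0 with a pseudocount of 0.1, the mean of log values per cell, lane as a block or labelled sex as a term. Sex-linked transcripts went against the label in all 4 CS libraries, so that last term does not adjust for the sex the transcripts give. Leaving out 1 mouse gave 0 to 1. With genes found in at least 1% of cells the count stayed 1. The gene was then Fbn1 (0.08, adjusted p = 0.0429 by limma) and not Eln (adjusted p = 0.0744 by limma). Fbn1 was found in 3.8% of these cells in CS and 2.5% in RA mice, and with the main filter 10.8% of all genes were called there. In arterial endothelium the 1 member called became 0 with the 1% filter, with counts summed per mouse or with the mean of log values per cell. Leaving out 1 mouse gave 0 to 1 there. The difference of the Eln effect between adventitial fibroblasts and capillary B cells ranged from −0.88 to −0.71 when 1 mouse was left out. Neighbouring source pairs that passed numbered 0 of 40, where the test had little room to pass any, and 24 without a minimum number of cells. The cause of these changes was not tested, and each fit that left out 1 mouse also had fewer mice. Replicate numbers follow the order of deposit and pair no mice, so the paired fit was that with lane as a block, which set 1 CS beside 1 RA mouse where both had 20 cells, in 2 lanes in peribronchial fibroblasts and 3 in mesothelium. The called list genes Tgfb2, Tgfb3, Adamts10 and Mfap2 kept their sign in 20 of 20 alternatives and their call in 10, 14, 9 and 11. Their groups did not overlap, so leaving out 1 mouse could not change the sign, nor could the filters, terms and cell minima. Smooth muscle cells were too few for the planned test, at 4 to 35 cells per mouse.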
